A study of Rattus norvegicus with 24 samples.

Results

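The response of cardiac fibroblasts from rats of 10-13 weeks to high glucose was measured by RNA sequencing in 6 libraries, chosen by their labels for age and glucose from the 24 libraries of the series. The high glucose group held 3 libraries of cells after 24 hours at 33 mM glucose in DMEM, and the normal glucose group held 3 after the same time at 5.5 mM. All 6 were primary cells grown with 10% fetal bovine serum and antibiotics before the treatment. The other 18 libraries hold the same glucose levels at 0-3 days, 3-4 weeks and 20 months. The labels used here give no strain, sex or passage, do not say how many animals were pooled, and name no osmotic control, so the glucose and the added osmotic load of 33 mM cannot be told apart.

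Fibroblasts are the cells that make and remodel the collagen-rich matrix of the heart, and in diabetes they are studied as a source of cardiac fibrosis. Glucose enters through transporters such as GLUT1, is phosphorylated by hexokinases, and activates the sugar-sensing transcription factors MondoA and ChREBP, which pair with Mlx at carbohydrate-response elements of genes such as Txnip. TGF-beta and activins signal through Smad proteins to matrix and contractile genes, with inhibitors at several steps. SREBP factors drive the genes of cholesterol and fatty acid synthesis, and E2F factors those of DNA replication.

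The 6 libraries held 18.9 to 23.4 M counts (M for mega), the deepest being high glucose library 3, with 15188 to 15356 genes with a count in each. The 10 most abundant genes took 11.9% to 12.3% of the counts. The mitochondrial share was 3.20% ± 0.135 in high glucose and 3.35% ± 0.231 in normal glucose (SD, n = 3 each; exact permutation test, two-sided, p = 0.5, where 3 against 3 allows no less than 0.1). The first 2 principal components of these libraries, with 29.6% and 26% of the variance, separated the replicate numbers, and the third, with 21.1%, separated the glucose levels. Libraries with the same number deviated together from their group means, with correlations across genes of 0.368 to 0.411. For different numbers the correlations were -0.215 to -0.169. Deviations from a group mean cancel within the group, so these negative values largely follow from the positive ones and are no separate support. No test is given for the correlations, since genes do not vary independently. Equal numbers were therefore treated as 3 pairs, pair 1, 2 and 3, which the labels do not state. Since the labels do not say which libraries are separate animals or cultures, the spread behind each p value may be technical. Where the fit allows for the pairs, this is the spread of the glucose change among pairs, pooled over all ages of the series. Pairing at the other ages was not checked.

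With the pairs as a block, 1067 of 13806 genes tested passed (7.73%), at an adjusted p under 0.05 in edgeR's quasi-likelihood test with Benjamini-Hochberg adjustment over all genes tested. Of these genes, called here, 586 were higher (4.24%) and 481 lower (3.48%) in high glucose. Most changes were small, with 904 of the called genes (84.7%) under 1.5-fold, 20 over 2-fold higher and 29 over 2-fold lower. The direction was the same in 3 of 3 pairs for 1061 of them, which selection by a test of change within pairs favours. For 669 of the called genes the 2 groups did not overlap, as they did not for 1992 genes of all those tested (14.4%). Without the block all 1067 kept their sign, which is no separate support, since the block hardly alters the log2 change. Of the 1067, 632 had an unadjusted p under 0.05 without the block. In that fit 1 gene in all passed (0.00724%), of 1174 with an unadjusted p under 0.05. DESeq2 without the block called 17 genes higher and 16 lower. Leaving out pair 3 left 81 genes higher and 69 lower, of which 79 and 65 were among those called with all pairs. Every adjusted p below is from the blocked edgeR fit. Every log2 change (high over normal glucose) has its standard error (SE), and levels are counts scaled to a library of fixed size (CPM) in libraries 1, 2 and 3.

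**Figure D1:**
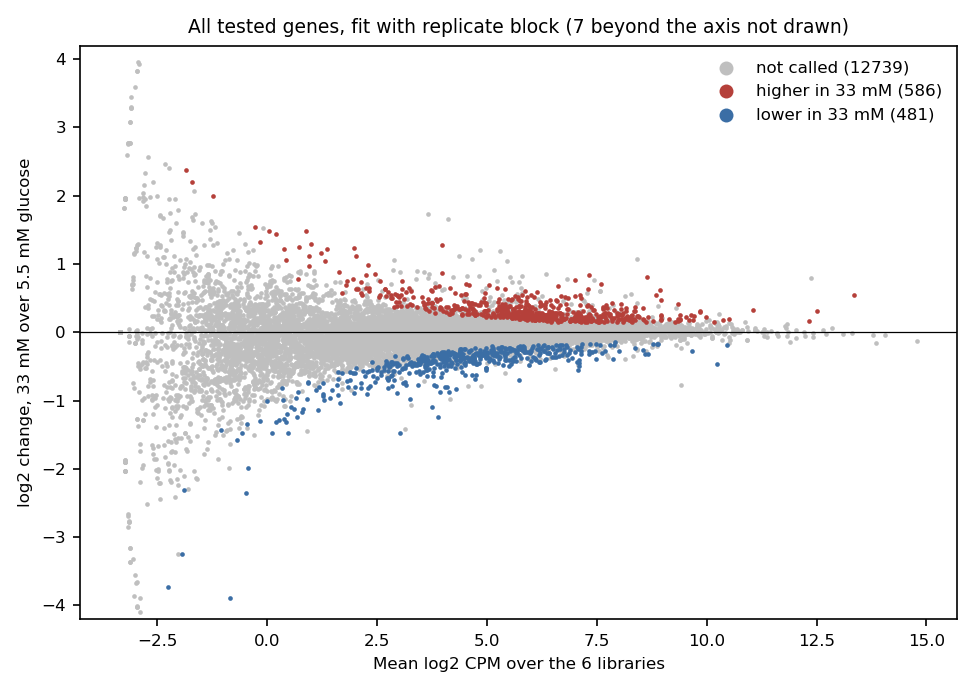
Log2 change (33 over 5.5 mM glucose, vertical) of each tested gene against its mean log2 CPM over the 6 libraries (horizontal), with 586 genes called higher in red, 481 called lower in blue and the others in grey. The called genes lie close to 0 at high levels and farther from it at low levels, and 7 genes beyond the vertical axis are not drawn.

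The gene that passed with and without the block was Smpd3, which encodes the neutral sphingomyelinase that makes ceramide at membranes (chromosome 19, bases 38237965 to 38321528, Rnor_6.0, the build of the deposited table). It had 2, 1 and 3 counts in high glucose, against 28, 20 and 42 counts in normal glucose. Its summed level in high glucose was 0.0649 of that in normal glucose (exact 95% interval 0.0232 to 0.147, for counting error only). The adjusted p was 8.06e-05 with the block and 0.00592 without it. Without the block no gene passed in edgeR when normal glucose library 3 or any 1 of the high glucose libraries was left out. None passed either at a minimum count of 50 or in a fit to the 6 libraries alone. Every high glucose library lay below every normal glucose library, at a level near the lower limit of these libraries. Smpd3 was outside the rule for named genes and was chosen after its values were seen.

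Genes of glucose sensing moved in both directions. Txnip, which is induced by glucose and restrains its uptake, and Arrdc4, its arrestin-domain relative with the same known control, rose, while Mknk2, Klf10 and Acacb of the same list fell. Of 15 tested targets of the carbohydrate-response element, 2 rose and 3 fell (33.3% called, against 7.73% of all genes tested). Their median log2 change was -0.11, against -0.00466 over all genes tested. Txnip (chromosome 2, bases 198683159 to 198686974) had 138, 165 and 131 CPM in high glucose, against 109, 119.98 and 129 CPM in normal glucose. The 3 high glucose libraries were above the others, but libraries 3 of the 2 groups were almost level, and the log2 change was 0.27 ± 0.067 (SE), adjusted p = 0.0194. Arrdc4 (chromosome 1, bases 129766100 to 129780356) had 18.3, 20 and 15.6 CPM in high glucose, against 13.4, 13.9 and 11.1 CPM in normal glucose. Its groups did not overlap, and all 3 pairs moved by a like amount (log2 changes of 0.45, 0.52 and 0.48; fit 0.49 ± 0.10 (SE), adjusted p = 0.00649). Mknk2, a kinase of the translation factor eIF4E, changed by -0.30 ± 0.057 (SE), adjusted p = 0.00407, and Klf10, a transcription factor induced by TGF-beta, by -0.30 ± 0.082 (SE), adjusted p = 0.0329. Acacb, the acetyl-CoA carboxylase of the mitochondrial surface, was at a low level (0.487, 0.545 and 0.912 CPM in high glucose, against 0.881, 1.61 and 1.46 CPM in normal glucose; -1.0 ± 0.30 (SE), adjusted p = 0.0481). Txnip lost its call without pair 1 (adjusted p = 0.113) or pair 2 (0.17). Without pair 3 the adjusted p was 0.0611 for Arrdc4, 0.0847 for Mknk2 and 0.448 for Klf10, which was also lost without pair 1 (0.122). Acacb was called in no fit without 1 pair.

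The promoter of Arrdc4 is shown because this gene rose in every pair and its family is the textbook target of the Mondo factors. The 250 bases before its start, from RefSeq on the GRCr8 build (chr1:131793426-131793675, minus strand, a build other than that of the counts), hold CACGTG, the core of the E-box these factors bind, 1 time, beginning 177 bases before the start (capitals).
Arrdc4: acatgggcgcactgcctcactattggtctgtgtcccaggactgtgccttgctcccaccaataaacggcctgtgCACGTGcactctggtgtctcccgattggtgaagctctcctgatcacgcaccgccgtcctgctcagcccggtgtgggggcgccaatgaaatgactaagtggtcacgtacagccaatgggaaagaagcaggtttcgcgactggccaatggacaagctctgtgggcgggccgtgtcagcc
CACGTG reads the same on both strands and occurred in 2148 of 33469 RefSeq promoters of 250 bases before to 50 after the start (6.42%). The match is a description of the letters and not a binding site.

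Of the genes of glucose uptake and glycolysis, 1 transporter and 1 hexokinase rose. Slc2a1, the GLUT1 transporter, had 123, 140.3 and 151 CPM in high glucose, against 91.4, 114 and 87.7 CPM in normal glucose, and Hk2, hexokinase 2, had 119, 119 and 148 CPM in high glucose, against 99.5, 98.1 and 90.1 CPM in normal glucose. In neither gene did the groups overlap, and library 3 of high glucose was the highest for both. The log2 changes were 0.50 ± 0.13 (SE), adjusted p = 0.0397 for Slc2a1 and 0.42 ± 0.080 (SE), adjusted p = 0.00575 for Hk2. Of 29 tested genes of uptake and glycolysis these 2 rose and 1 fell, Pfkm, the muscle-type phosphofructokinase (-0.27 ± 0.080 (SE), adjusted p = 0.0458), and the median was 0.08. The share called, 10.3%, was near the 7.73% of all genes tested. Without pair 3 neither Slc2a1 (adjusted p = 0.244) nor Hk2 (0.0795) was called, without pair 1 Slc2a1 was lost as well (0.118), and Pfkm was lost in each fit without 1 pair (0.117 to 0.246).

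Among the side branches of glucose metabolism, 1 of 17 tested genes of the polyol, pentose and hexosamine routes was called (5.88%, against 7.73% of all genes tested). Gfpt1, whose enzyme takes the first and limiting step into the hexosamine pathway, had 256, 242 and 233 CPM in high glucose, against 209, 212 and 199.7 CPM in normal glucose. The groups did not overlap, the log2 change was 0.23 ± 0.044 (SE), adjusted p = 0.00375, and the call held in each fit without 1 pair. Uap1, a later enzyme of that pathway, was not called (182, 228 and 273 CPM in high glucose, against 120.1, 151 and 126 CPM in normal glucose; 0.77 ± 0.22 (SE), adjusted p = 0.076). Aldose reductase Akr1b1, the entry to the polyol pathway, had 129.8, 126 and 168 CPM in high glucose, against 134, 124 and 153 CPM in normal glucose, with overlapping groups and a log2 change of 0.04 ± 0.060 (SE), adjusted p = 0.766. Of 12 tested genes of glycation and its repair 1 was called (8.33%). It was Fn3krp, a kinase that removes sugar adducts from proteins, which fell (10.8, 12.4 and 11.6 CPM in high glucose, against 15.7, 19.1 and 15.3 CPM in normal glucose; -0.52 ± 0.089 (SE), adjusted p = 0.00207), and its call held in each fit without 1 pair.

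Of 14 tested genes of the osmotic response, 5 rose and none fell (35.7% called, against 7.73% of all genes tested, median 0.26). Slc38a2, the SNAT2 transporter of small neutral amino acids (chromosome 7, bases 138088649 to 138100841), had 743, 776 and 745 CPM in high glucose, against 567, 559.7 and 574 CPM in normal glucose. The 2 groups were far apart relative to their spread, the log2 change was 0.41 ± 0.052 (SE), adjusted p = 1.94e-04, and the call held in each fit without 1 pair. The betaine transporter Slc6a12 was at a low level (1.62, 1.31 and 3.51 CPM in high glucose, against 1.04, 0.214 and 1.51 CPM in normal glucose; 1.23 ± 0.25 (SE), adjusted p = 0.00608). The taurine transporter Slc6a6 had 217, 144 and 182 CPM in high glucose, against 155, 113 and 144 CPM in normal glucose, so its groups overlapped while each pair rose (0.39 ± 0.081 (SE), adjusted p = 0.011). Hsph1 and Hspa4l, chaperones of the Hsp110 family, changed by 0.25 ± 0.064 (SE), adjusted p = 0.0235 and by 0.57 ± 0.17 (SE), adjusted p = 0.0404. Nfat5, the transcription factor of the osmotic response, was not called (-0.05, adjusted p = 0.715). The number called was 3 without pair 1, 4 without pair 2 and 1 (Slc38a2) without pair 3, and without the block no member of any list passed.

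**Figure D2:**
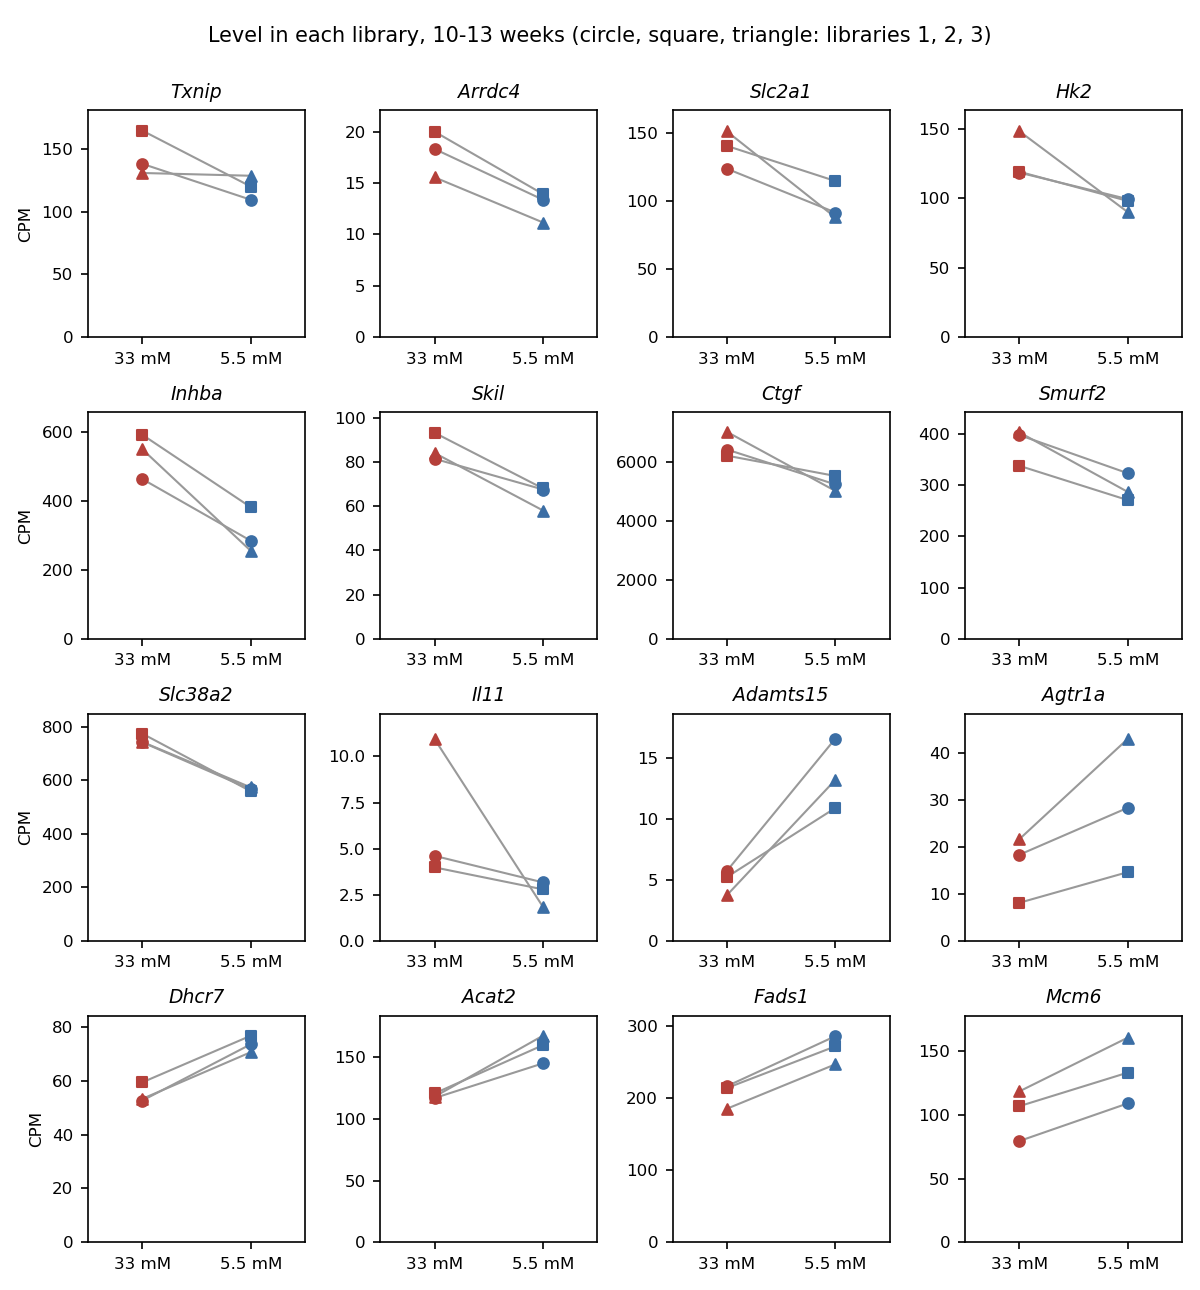
Level (CPM, vertical, from 0) of 16 genes in each library, with 33 mM glucose left of 5.5 mM glucose and grey lines joining libraries of the same number (circle, square and triangle for libraries 1, 2 and 3). The groups do not overlap for Inhba, Slc38a2 and Adamts15, among others, and Il11 has its highest level in high glucose library 3.

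In the TGF-beta and activin pathway, the activin subunit Inhba, the inhibitors Skil and Smurf2 and the target gene Ctgf were among those that rose, while Inhbb, Bambi and Tgfbi fell. Of 26 tested genes 5 rose and 3 fell (30.8% called, against 7.73% of all genes tested), with a median of 0.12. Among the ligands, Inhba, the subunit of activin A (chromosome 17, bases 51898217 to 51912496), had 464, 592 and 550.3 CPM in high glucose, against 285, 382 and 255 CPM in normal glucose. Every high glucose library was above every normal glucose library, each pair rose (log2 changes of 0.70, 0.63 and 1.11), and the fitted log2 change was 0.81 ± 0.10 (SE), adjusted p = 0.00166. Inhbb, the subunit of activin B, had 11.9, 27.4 and 20.5 CPM in high glucose, against 20.2, 33.9 and 27.8 CPM in normal glucose, with overlapping groups and a fall in each pair (-0.48 ± 0.13 (SE), adjusted p = 0.0409). Tgfb1 itself had 266, 305 and 284 CPM in high glucose, against 233, 279 and 195 CPM in normal glucose and was not called (0.29 ± 0.12 (SE), adjusted p = 0.198).

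Among the inhibitors, Skil, the Smad co-repressor SnoN, had 81.5, 93.3 and 84.1 CPM in high glucose, against 67.6, 68.1 and 58.1 CPM in normal glucose (0.42 ± 0.057 (SE), adjusted p = 4.72e-04). The ubiquitin ligase Smurf2, which acts on receptors and Smads, had 397, 337 and 403 CPM in high glucose, against 323, 270.4 and 286 CPM in normal glucose (0.37 ± 0.053 (SE), adjusted p = 6.54e-04). For both genes the groups did not overlap. The pseudoreceptor Bambi had 6.07, 11.2 and 4.1 CPM in high glucose, against 11.6, 13.9 and 14.9 CPM in normal glucose, lowest in high glucose library 3 (-0.98 ± 0.25 (SE), adjusted p = 0.0412). Smad7 was not called (0.13 ± 0.045 (SE), adjusted p = 0.073).

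Among the targets, Ctgf, connective tissue growth factor, had 6438, 6229.5 and 7039 CPM in high glucose, against 5249.7, 5538 and 5028 CPM in normal glucose. Its groups stood apart, with a log2 change of 0.32 ± 0.056 (SE), adjusted p = 0.0026. The matrix protein Tgfbi had 7.2, 4.8 and 3.83 CPM in high glucose, against 10.7, 7.97 and 4.85 CPM in normal glucose, so that the groups overlapped (-0.56 ± 0.14 (SE), adjusted p = 0.0188). Inhba, Skil and Smurf2 were called in each fit without 1 pair. Ctgf was lost without pair 3 (adjusted p = 0.0727) and Bambi without pair 1 (0.131) or pair 3 (0.125). The list had 4 genes higher and 0 lower without pair 1, 5 and 1 without pair 2, and 3 and 0 without pair 3.

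Among the genes of the matrix itself, 1 of 17 tested collagens (5.88%) and 5 of 31 tested glycoproteins (16.1%) were called, against 7.73% of all genes tested. A log2 change below 0 was found for 14 of the collagens, and the called one was Col6a1, a chain of the microfibrillar collagen VI (1618, 1059.8 and 1366 CPM in high glucose, against 1819, 1216 and 1561 CPM in normal glucose; -0.19 ± 0.054 (SE), adjusted p = 0.0388). Col1a1, the main chain of collagen I, averaged 27184 ± 2697 CPM in high glucose and 29755 ± 2959 CPM in normal glucose (SD, n = 3 each), with overlapping groups and a log2 change of -0.13 ± 0.046 (SE), adjusted p = 0.0888. The pairs of Col1a1 were close to each other (log2 changes of -0.13, -0.13 and -0.13). Col3a1 (-0.16 ± 0.074 (SE), adjusted p = 0.216), fibronectin Fn1 (-0.03 ± 0.055 (SE), adjusted p = 0.786) and periostin Postn (-0.01 ± 0.043 (SE), adjusted p = 0.931) were not called either. Of 31 tested matrix glycoproteins 2 rose, osteopontin Spp1 (0.32 ± 0.060 (SE), adjusted p = 0.00384) and tenascin C Tnc (0.33 ± 0.089 (SE), adjusted p = 0.045), and 3 fell, thrombospondin 2 Thbs2 (-0.32 ± 0.074 (SE), adjusted p = 0.0174), Emilin1 (-0.19 ± 0.048 (SE), adjusted p = 0.02) and the keratan sulfate proteoglycan lumican, Lum (-0.21 ± 0.055 (SE), adjusted p = 0.0238). Thbs1, thrombospondin 1, had 7235, 5417 and 8539 CPM in high glucose, against 4414, 4258 and 3413 CPM in normal glucose, groups that did not overlap and an adjusted p of 0.0584. Col6a1 and the 5 glycoproteins were not called without pair 3. Col6a1 was also lost without pair 1 (adjusted p = 0.139) or pair 2 (0.128), Thbs2 without pair 1 (0.0854) and Emilin1 without pair 2 (0.0904). Tnc was called in no fit without 1 pair.

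Of 19 tested contractile genes of myofibroblasts, 3 rose (15.8%, against 4.24% of all genes tested) and none fell. They were smoothelin Smtn (169.8, 153 and 138 CPM in high glucose, against 137, 131 and 122 CPM in normal glucose; 0.24 ± 0.051 (SE), adjusted p = 0.0081), vinculin Vcl, which links actin to adhesions (1089, 941 and 1071 CPM in high glucose, against 836, 873 and 785 CPM in normal glucose; 0.31 ± 0.077 (SE), adjusted p = 0.0257), and the LIM protein Fhl2 (0.26 ± 0.076 (SE), adjusted p = 0.0457). Acta2, the smooth muscle actin that defines the myofibroblast, had 2756, 3094 and 3473 CPM in high glucose, against 2934, 3484 and 3008 CPM in normal glucose, with overlapping groups (-0.02 ± 0.064 (SE), adjusted p = 0.914). Of 16 tested targets of YAP, 3 rose (18.8%, against 4.24% of all genes tested), Ctgf, Lats2 and Axl, and 8 had a log2 change above 0. Lats2, the kinase that restrains YAP, had 277, 291 and 323 CPM in high glucose, against 217, 264 and 228 CPM in normal glucose (0.33 ± 0.055 (SE), adjusted p = 0.00173), and the receptor kinase Axl changed by 0.18 ± 0.050 (SE), adjusted p = 0.0359. Lats2 was called in each fit without 1 pair, Smtn was lost without pair 1 (adjusted p = 0.0796), Axl without pair 2 (0.0971) or pair 3 (0.343), and Vcl and Fhl2 without pair 1 (0.129 and 0.121) or pair 3 (0.21 and 0.368).

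**Figure D3:**
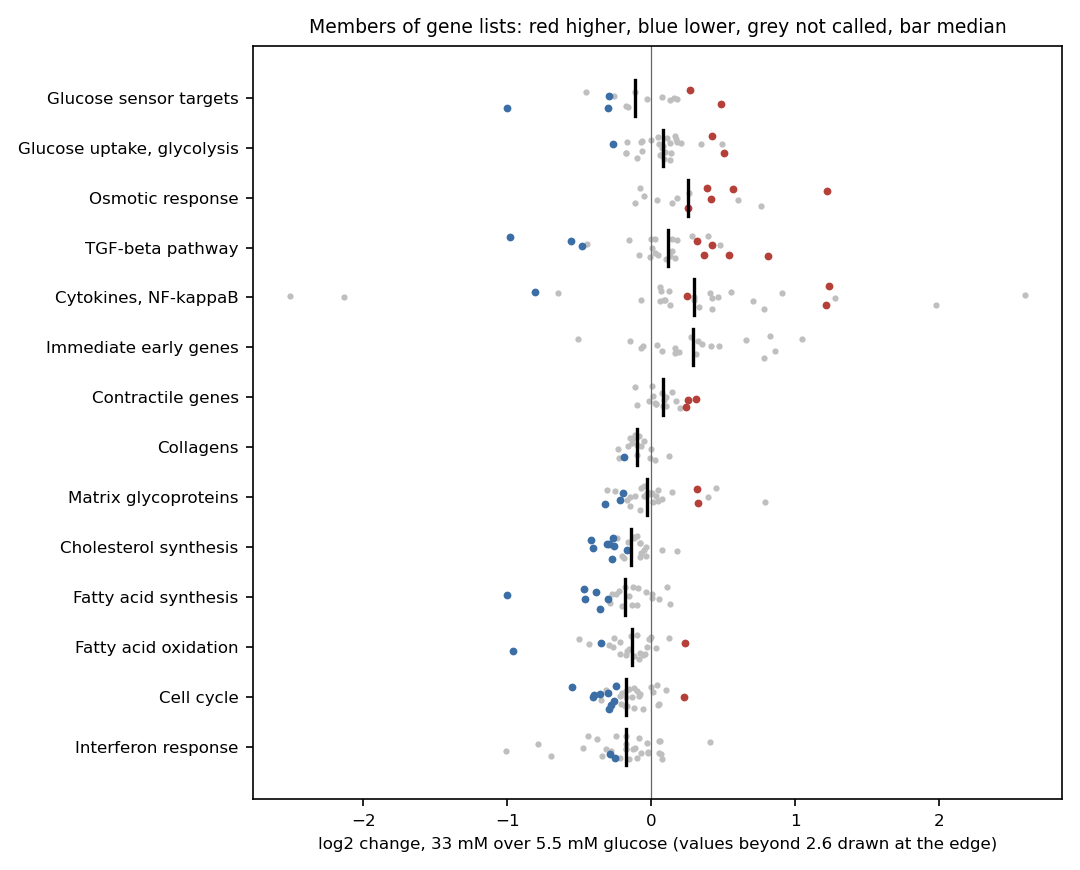
Fitted log2 change (33 over 5.5 mM glucose, horizontal) of each tested member of 14 gene lists, with called members in red (higher) or blue (lower), others in grey and the list median as a bar. Blue points outnumber red ones in the lists of cholesterol synthesis, fatty acid synthesis and the cell cycle, and only red points are called in the osmotic and contractile lists.

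The genes of cytokines and NF-kappaB had a median log2 change of 0.3 over 29 tested genes, and much of this lay in pair 3. Of the 29 genes 3 rose and 1 fell (13.8% called, against 7.73% of all genes tested). The list medians were 0 in pair 1, 0.13 in pair 2 and 0.87 in pair 3. Il11, a cytokine of the IL-6 family that acts on fibroblasts, had 4.6, 3.98 and 10.9 CPM in high glucose, against 3.16, 2.78 and 1.82 CPM in normal glucose (1.24 ± 0.29 (SE), adjusted p = 0.0188), and Il6 had 3.95, 1.91 and 6.48 CPM in high glucose, against 2.33, 1.34 and 1.46 CPM in normal glucose (1.22 ± 0.30 (SE), adjusted p = 0.0229). High glucose library 3 was the highest of the 6 for both. The growth factor of macrophages, Csf1, changed by 0.25 ± 0.072 (SE), adjusted p = 0.0432, and the adhesion molecule Vcam1 by -0.81 ± 0.20 (SE), adjusted p = 0.0216. Icam1 had 337, 323 and 481 CPM in high glucose, against 263, 243 and 258 CPM in normal glucose, groups that did not overlap and an adjusted p of 0.0555. Without pair 3 none of these genes was called, with an adjusted p of 0.264 for Il11, 0.329 for Il6, 0.365 for Csf1 and 0.18 for Vcam1. Csf1 was also lost without pair 2 (0.117), and Vcam1 without pair 1 (0.0924) or pair 2 (0.0642).

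Immediate early genes, which respond to serum, growth factors and handling within minutes, differed between the pairs. Of 20 tested, none was called in edgeR, 14 were over 2-fold higher in pair 3 and 2 were over 2-fold lower in pair 1. The medians of the pairs were -0.28, 0.04 and 1.19. Nr4a1, an orphan nuclear receptor, had 57.7, 25.5 and 189 CPM in high glucose, against 84.7, 19.9 and 15 CPM in normal glucose, and Fos had 44.3, 9.7 and 33.7 CPM in high glucose, against 79.2, 15.9 and 8.96 CPM in normal glucose. For both genes library 2 was the lowest in high glucose, while library 1 was the highest and library 3 the lowest in normal glucose, and the groups overlapped. Fosl1, a Fos family member, had 12.3, 16.9 and 23.8 CPM in high glucose, against 10.8, 10.9 and 7.09 CPM in normal glucose with groups that did not overlap (0.86 ± 0.26 (SE), adjusted p = 0.0745), and Dusp6, a phosphatase of ERK, had 143, 126 and 179 CPM in high glucose, against 106, 92.8 and 63.7 CPM in normal glucose (0.78 ± 0.25 (SE), adjusted p = 0.101). Nr4a1 and Fos were named after their values were seen. DESeq2 with the block called 2 members higher, and the edgeR fit without pair 3 called 3 lower. The part of this early response in the other changes of pair 3 was not tested.

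**Figure D4:**
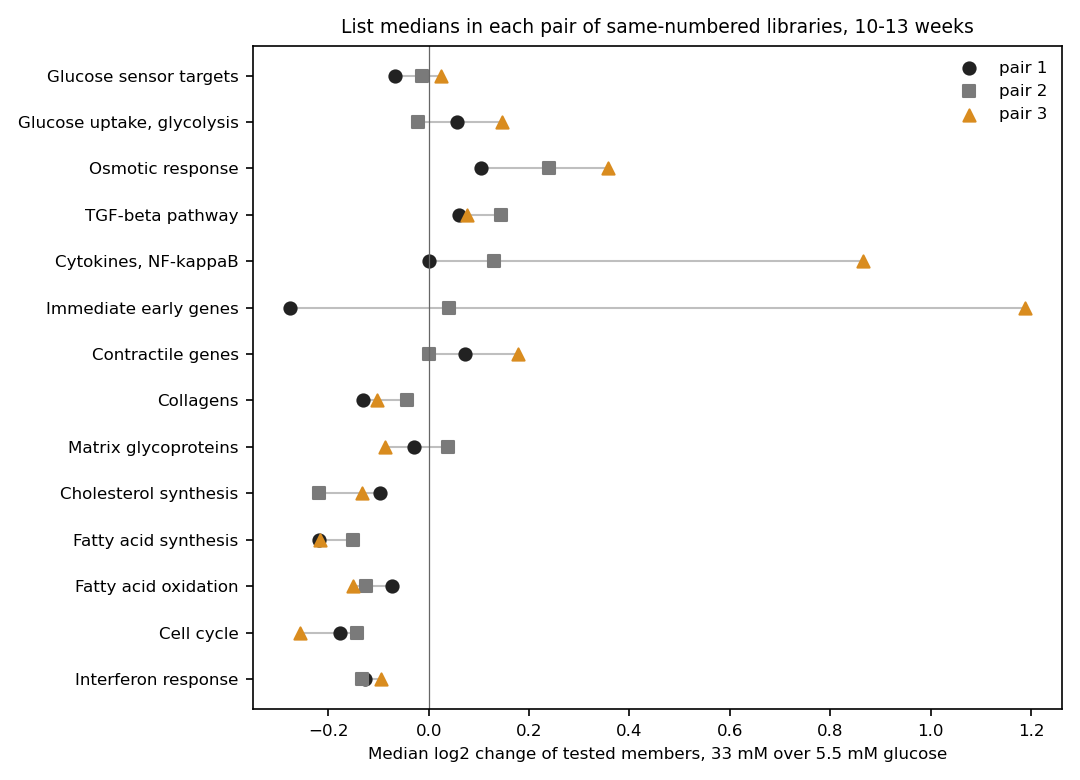
Median log2 change (33 over 5.5 mM glucose, horizontal) of the tested members of 14 gene lists in pair 1 (circle), pair 2 (square) and pair 3 (triangle). Pair 3 stands apart for immediate early genes (1.19) and cytokines (0.87), and the pairs lie closer together in the other 12 lists.

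Part of the genes of lipid synthesis fell in high glucose. Of 24 tested genes of cholesterol synthesis 8 fell and none rose (33.3% called, against 7.73% of all genes tested, median -0.14), and of 23 tested genes of fatty acid synthesis 6 fell and none rose (26.1%, median -0.18). Dhcr7, the reductase of the last step to cholesterol (chromosome 1, bases 217018916 to 217034904), had 52.6, 59.3 and 53.2 CPM in high glucose, against 73.5, 76.6 and 70.5 CPM in normal glucose. The groups did not overlap, all pairs fell (log2 changes of -0.48, -0.37 and -0.41), and the log2 change was -0.42 ± 0.062 (SE), adjusted p = 0.00107. Acat2, which makes the acetoacetyl-CoA that feeds the pathway, had 117, 121 and 118 CPM in high glucose, against 145, 159.9 and 168 CPM in normal glucose (-0.41 ± 0.078 (SE), adjusted p = 0.00573). The other called members included Fdft1, Nsdhl, Pmvk, Hsd17b7 and Fdps, enzymes from the mevalonate steps to the sterol ring, with changes from -0.31 for Pmvk to -0.16 for Fdps. The pathway's enzymes Hmgcs1 (-0.12 ± 0.058 (SE), adjusted p = 0.215) and Sqle (-0.10 ± 0.050 (SE), adjusted p = 0.251) were not called.

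In fatty acid synthesis, the desaturase Fads1 had 216, 214 and 185 CPM in high glucose, against 285, 271 and 246 CPM in normal glucose, with groups that did not overlap (-0.39 ± 0.062 (SE), adjusted p = 0.00166). Srebf1, which encodes the SREBP-1 factor, had 97.1, 78.6 and 69.1 CPM in high glucose, against 136, 99.3 and 81.7 CPM in normal glucose, falling in each pair while the groups overlapped (-0.36 ± 0.058 (SE), adjusted p = 0.00166). Srebf1 overlaps Rai1 on the other strand, and since strand use in counting is not given in the sources used here, their reads may be mixed. Acss2, which makes acetyl-CoA from acetate, changed by -0.47 ± 0.11 (SE), adjusted p = 0.0139, the desaturase Scd2 by -0.46 ± 0.11 (SE), adjusted p = 0.0294 and the carboxylase Acaca by -0.30 ± 0.079 (SE), adjusted p = 0.0306. The sixth was Acacb. Of 26 tested genes of fatty acid oxidation, 11.5% were called, against 7.73% of all genes tested. A log2 change below 0 was found for 23 of them (median -0.13, against -0.00466 over all genes tested). The isomerase Ech1 (-0.35 ± 0.088 (SE), adjusted p = 0.0206) and the receptor Ppara (-0.96 ± 0.28 (SE), adjusted p = 0.0423) fell, and Cpt1a, the carnitine transferase that controls entry to mitochondria, rose (0.23 ± 0.069 (SE), adjusted p = 0.0458). Ppara (adjusted p of 0.14 to 0.171) and Cpt1a (0.122 to 0.211) were lost in each fit without 1 pair, and Ech1 without pair 2 (0.0928) or pair 3 (0.265). Without pair 3, 1 gene of cholesterol synthesis (Dhcr7) and 2 of fatty acid synthesis (Fads1 and Srebf1) were called. Without pair 1 these counts were 4 and 2, and without pair 2 they were 3 and 3, with 1 gene of cholesterol synthesis called higher in that fit.

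Several genes of DNA replication fell as well. Of 34 tested genes of the cell cycle 9 fell and 1 rose (29.4% called, against 7.73% of all genes tested, median -0.17), and 28 had a log2 change below 0. Mcm6, a subunit of the replicative helicase (chromosome 13, bases 45042882 to 45068077), had 79.4, 107 and 118 CPM in high glucose, against 109, 133 and 160.3 CPM in normal glucose. The groups overlapped because the 3 numbers differed in level, but each pair fell (log2 changes of -0.46, -0.32 and -0.44; fit -0.40 ± 0.067 (SE), adjusted p = 0.00191). The helicase subunits Mcm7 (-0.35 ± 0.062 (SE), adjusted p = 0.00247), Mcm2 (-0.28 ± 0.058 (SE), adjusted p = 0.00748), Mcm3 (-0.30 ± 0.077 (SE), adjusted p = 0.0278) and Mcm4 (-0.25 ± 0.061 (SE), adjusted p = 0.0192) fell too, and Mcm5 was not called (-0.35 ± 0.14 (SE), adjusted p = 0.174). Thymidine kinase Tk1 had 67.5, 79.7 and 65.5 CPM in high glucose, against 92, 100.02 and 87.6 CPM in normal glucose (-0.40 ± 0.077 (SE), adjusted p = 0.00543). Cyclin E2, Ccne2, of the start of S phase, changed by -0.55 ± 0.13 (SE), adjusted p = 0.0193, thymidylate synthase Tyms by -0.29 and the mitotic kinase Aurkb by -0.26. Cyclin D1, Ccnd1, rose (332, 474 and 243 CPM in high glucose, against 288, 389 and 212 CPM in normal glucose; 0.23 ± 0.051 (SE), adjusted p = 0.0102). The number called lower was 3 without pair 1, 6 without pair 2 and 2 (Mcm6 and Mcm7) without pair 3, and of these fits Ccnd1 was called in that without pair 1 alone.

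Promoter stretches of 5 helicase genes (that of Mcm4 was not read here) are shown because these genes moved together and are textbook E2F targets. Each line is 30 bases from RefSeq on GRCr8, with TTTCGCG or its complement CGCGAAA, an E2F-type motif, in capitals. The motif begins 14 bases before the start of Mcm2 (chr4:122918090-122918119, minus strand), 13 bases after that of Mcm3 (chr9:30733715-30733744, minus strand), 213 before that of Mcm5 (chr19:13488589-13488618, plus strand), 134 before that of Mcm6 (chr13:42404468-42404497, minus strand) and 52 before that of Mcm7 (chr12:22163212-22163241, minus strand).
Mcm2: cgtgacccggtTTTCGCGCGAAAacccgtg
Mcm3: acttgggaagtTTTCGCGccagggaggagt
Mcm5: tagctcagaagTTTCGCGccaaaacgtccc
Mcm6: tctgcttttggCGCGAAAttagcgtgtggt
Mcm7: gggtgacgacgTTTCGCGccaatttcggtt
In Mcm2 a match on each strand overlaps the other, and for Mcm5 the first of 2 matches is shown. TTTCGCG on either strand occurred in 274 of 33469 promoters (0.819%), that of Arrdc4 above among them. Mcm5 holds the motif and was not called, and the motif was picked with these genes known, so the matches describe the letters alone.

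In the other stress and signalling lists 0 to 4 members were called, where 7.73% of all genes tested were called. By list the share was 3.57% for oxidative stress, 6.25% for the interferon response, 6.67% for the clock and 6.9% for the unfolded protein response. It was 9.09% each for hypoxia and for senescence and p53, 13.3% for heat shock and 16.7% for starvation, FOXO and autophagy. Of 32 tested interferon response genes, 26 had a log2 change below 0 and 2 fell, among them the signal transducer Stat2 (54.6, 57.2 and 59.6 CPM in high glucose, against 69, 65.1 and 74.6 CPM in normal glucose; -0.28 ± 0.057 (SE), adjusted p = 0.00571). Of 29 genes of the unfolded protein and amino acid response, Ddit3, the stress factor CHOP, fell (43.1, 42.9 and 46.3 CPM in high glucose, against 64.3, 48.9 and 57.4 CPM in normal glucose; -0.36 ± 0.061 (SE), adjusted p = 0.00207), with the limit that it overlaps the better covered Mars on the other strand. The pseudokinase Trib3, induced by the same stress, fell as well (-0.26 ± 0.069 (SE), adjusted p = 0.0265). Of 28 oxidative stress genes, Gclc, the catalytic subunit that limits glutathione synthesis, rose (107, 107 and 136 CPM in high glucose, against 95.6, 78.8 and 90.6 CPM in normal glucose; 0.40 ± 0.072 (SE), adjusted p = 0.00375). Of 24 genes of starvation, FOXO and autophagy, Sesn3, a sestrin that restrains mTORC1, fell (-0.58 ± 0.10 (SE), adjusted p = 0.00274), and Fbxo32, an atrophy ubiquitin ligase, rose (0.52 ± 0.14 (SE), adjusted p = 0.0337), as did Trib2 (0.64 ± 0.17 (SE), adjusted p = 0.0432) and Txnip. The clock output gene Dbp fell (9.21, 8.66 and 8.8 CPM in high glucose, against 12.1, 12.7 and 12.3 CPM in normal glucose; -0.48 ± 0.10 (SE), adjusted p = 0.0102), and the p53 target Phlda3 rose (0.31 ± 0.077 (SE), adjusted p = 0.0258).

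Heat shock genes (15 tested) had Hsph1 and the co-chaperone Dnaja1 (0.17 ± 0.044 (SE), adjusted p = 0.0265) higher, and the 22 hypoxia genes had Slc2a1 and Hk2. None of 11 tested genes of the mitochondrial genome and none of 29 of the nuclear respiratory chain was called, with medians of -0.01 and -0.03. Ddit3 and Sesn3 were called in each fit without 1 pair. The others named for these lists were lost in at least 1 such fit, and without pair 3 the adjusted p was 0.0795 for Stat2, 0.0726 for Gclc and 0.0846 for Dbp.

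Among the 12 largest increases at a mean log2 CPM of at least 1, several encode secreted or matrix-linked proteins. Tfpi2, an inhibitor of serine proteases in the matrix (chromosome 4, bases 28947965 to 28953067), had 24.1, 12.5 and 44.3 CPM in high glucose, against 10.8, 8.03 and 12.5 CPM in normal glucose (1.27 ± 0.29 (SE), adjusted p = 0.0361). Has2, which makes hyaluronan, had 5.96, 5.01 and 9.94 CPM in high glucose, against 3.52, 4.07 and 2.76 CPM in normal glucose (0.99 ± 0.24 (SE), adjusted p = 0.0191). The TNF family cytokine Tnfsf15 changed by 1.17. In these genes high glucose library 3 was the highest, and without pair 3 the adjusted p was 0.241 for Tfpi2, 0.28 for Has2 and 0.505 for Tnfsf15. Esrp2, a splicing regulator of epithelial cells, had 5.9, 5.67 and 5.84 CPM in high glucose, against 3.21, 2.41 and 2.4 CPM in normal glucose (1.12 ± 0.17 (SE), adjusted p = 0.00107), and all 3 libraries of high glucose were close to each other. It overlaps Nfatc3 on the other strand, which had 9906 counts over the 6 libraries, against 494 for Esrp2. Gfod1 (17.9, 26.2 and 20.6 CPM in high glucose, against 12.1, 13.8 and 9.33 CPM in normal glucose; 0.87 ± 0.15 (SE), adjusted p = 0.00305) and Myh1, a fast skeletal myosin heavy chain (8.88, 7.25 and 5.97 CPM in high glucose, against 5.23, 4.92 and 2.34 CPM in normal glucose; 0.85 ± 0.15 (SE), adjusted p = 0.0026), separated the groups. Ripk2, the kinase downstream of NOD receptors, had 188, 205 and 256 CPM in high glucose, against 115, 148 and 101 CPM in normal glucose (0.84 ± 0.19 (SE), adjusted p = 0.0381). Esrp2, Gfod1 and Myh1 were called in each fit without 1 pair. The 12 also included Il11, Il6, the small GTPase Diras2 (1.05 ± 0.23 (SE), adjusted p = 0.01) and Myct1 (0.88 ± 0.26 (SE), adjusted p = 0.0493).

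Among called genes with a mean log2 CPM of at least 1, the largest decreases were led by Adamts15, a metalloprotease of aggrecan and versican (chromosome 8, bases 31977001 to 32000378), with 5.74, 5.23 and 3.74 CPM in high glucose, against 16.6, 10.9 and 13.2 CPM in normal glucose. The groups stood far apart, each pair fell (log2 changes of -1.52, -1.05 and -1.80), the log2 change was -1.48 ± 0.14 (SE), adjusted p = 5.26e-05, and the call held in each fit without 1 pair. Adamts3, which trims procollagen ends, had 1.73, 1.47 and 1.19 CPM in high glucose, against 4.61, 2.09 and 3.07 CPM in normal glucose (-1.13 ± 0.23 (SE), adjusted p = 0.00664). The GTPase-activating protein Arhgap20 had 7.31, 9.32 and 13.3 CPM in high glucose, against 16.6, 17.7 and 38.1 CPM in normal glucose, highest in normal glucose library 3 (-1.24 ± 0.25 (SE), adjusted p = 0.0204). Dixdc1, a DIX-domain protein of Wnt signalling, had 9.42, 11.6 and 6.98 CPM in high glucose, against 21.1, 22.3 and 16.2 CPM in normal glucose (-1.10 ± 0.27 (SE), adjusted p = 0.0431). Lyplal1, a lysophospholipase-like enzyme, had 3.2, 3.6 and 3.51 CPM in high glucose, against 5.91, 7.01 and 6.46 CPM in normal glucose, with little spread in either group (-0.91 ± 0.15 (SE), adjusted p = 0.00169). The others included Mfrp, Bambi, Pcyt1b, Exoc3l4, Creb5 and Tril, with changes from -1.0 for Mfrp to -0.89 for Tril. Of the 12, Adamts15 and Lyplal1 were called in each fit without 1 pair. Without pair 3 the adjusted p was 0.0868 for Adamts3, 0.18 for Arhgap20 and 0.226 for Dixdc1, and these 3 were also lost without pair 1 (0.0823 to 0.159).

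The glucose effect at 10-13 weeks was set against the mean of the effects at 0-3 days, 3-4 weeks and 20 months, in a test of the difference itself. The block treats equal numbers as pairs at every age, which was checked at 10-13 weeks alone. With the block the effect was higher in 17 genes (0.123%) and lower in 19 (0.138%), 0.261% of those tested in all, and 35 of these 36 were also called at 10-13 weeks. Without the block edgeR and DESeq2 called none, with 327 genes at an unadjusted p under 0.05 in edgeR and 307 in DESeq2. Adamts15 had log2 changes of 0.15 ± 0.12 (0-3 days), -0.20 ± 0.11 (3-4 weeks), -1.48 ± 0.14 (10-13 weeks) and -0.09 ± 0.20 (20 months) (difference -1.43 ± 0.17, adjusted p = 0.00101). Agtr1a, the type 1a receptor of angiotensin II, had 18.3, 8.06 and 21.6 CPM in high glucose, against 28.3, 14.6 and 43 CPM in normal glucose at 10-13 weeks, and its changes were 0.15 ± 0.085 (0-3 days), -0.06 ± 0.090 (3-4 weeks), -0.83 ± 0.096 (10-13 weeks) and -0.13 ± 0.095 (20 months) (difference -0.82 ± 0.11, adjusted p = 0.00258). Both genes were thus lower in high glucose at 10-13 weeks and near 0 at the other ages.

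Creb3l1, a membrane-bound transcription factor linked to collagen secretion, had changes of 0.60 ± 0.064 (0-3 days), 0.01 ± 0.064 (3-4 weeks), -0.33 ± 0.064 (10-13 weeks) and -0.02 ± 0.064 (20 months), opposite in direction at 0-3 days and 10-13 weeks (difference -0.53 ± 0.074, adjusted p = 0.00346). The fatty acid activating enzyme Acsl3 changed by -0.30 ± 0.057 (SE), adjusted p = 0.0042 at 10-13 weeks (difference -0.43 ± 0.067, adjusted p = 0.00877), and the kinesin Kif26b by -0.46 ± 0.11 (SE), adjusted p = 0.0166 (difference -0.79 ± 0.13, adjusted p = 0.00891). Dhcr7 was among the 36 genes, with changes of -0.23 ± 0.064 (0-3 days), -0.05 ± 0.061 (3-4 weeks), -0.42 ± 0.062 (10-13 weeks) and 0.23 ± 0.064 (20 months) (difference -0.40 ± 0.072, adjusted p = 0.0186), and so was Srebf1 (difference -0.33 ± 0.067, adjusted p = 0.0397). These 2 were the only members of the functional lists among them.

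Of the genes with a higher effect, Rock2, a kinase of actomyosin contraction, had 583, 549 and 634 CPM in high glucose, against 422, 398 and 447 CPM in normal glucose at 10-13 weeks. The groups stood apart, and the changes were 0.04 ± 0.050 (0-3 days), 0.25 ± 0.050 (3-4 weeks), 0.48 ± 0.050 (10-13 weeks) and 0.19 ± 0.050 (20 months) (difference 0.32 ± 0.058, adjusted p = 0.0223). Chst2, a sulfotransferase of glycans, changed by 0.46 ± 0.065 (SE), adjusted p = 6.54e-04 (difference 0.43 ± 0.075, adjusted p = 0.0167), and the RNA-binding protein Samd4b by 0.35 ± 0.054 (SE), adjusted p = 0.00113 (difference 0.35 ± 0.062, adjusted p = 0.0177). Schip1 changed by 0.39 ± 0.076 (SE), adjusted p = 0.00414 (difference 0.54 ± 0.087, adjusted p = 0.00989), as did Fchsd1, which overlaps Rell2 on the other strand (0.39 ± 0.072 (SE), adjusted p = 0.00329; difference 0.54 ± 0.084, adjusted p = 0.00877). The number of genes with a higher and a lower effect than at the other ages was 2 and 6 without pair 1 of 10-13 weeks, 27 and 21 without pair 2, and 0 and 3 without pair 3. The blocked fit called 148 genes in cells of 0-3 days (1.07%), 54 in those of 3-4 weeks (0.391%), 1067 in those of 10-13 weeks (7.73%) and 128 in those of 20 months (0.927%), and the difference between these counts was not tested.

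**Figure D5:**
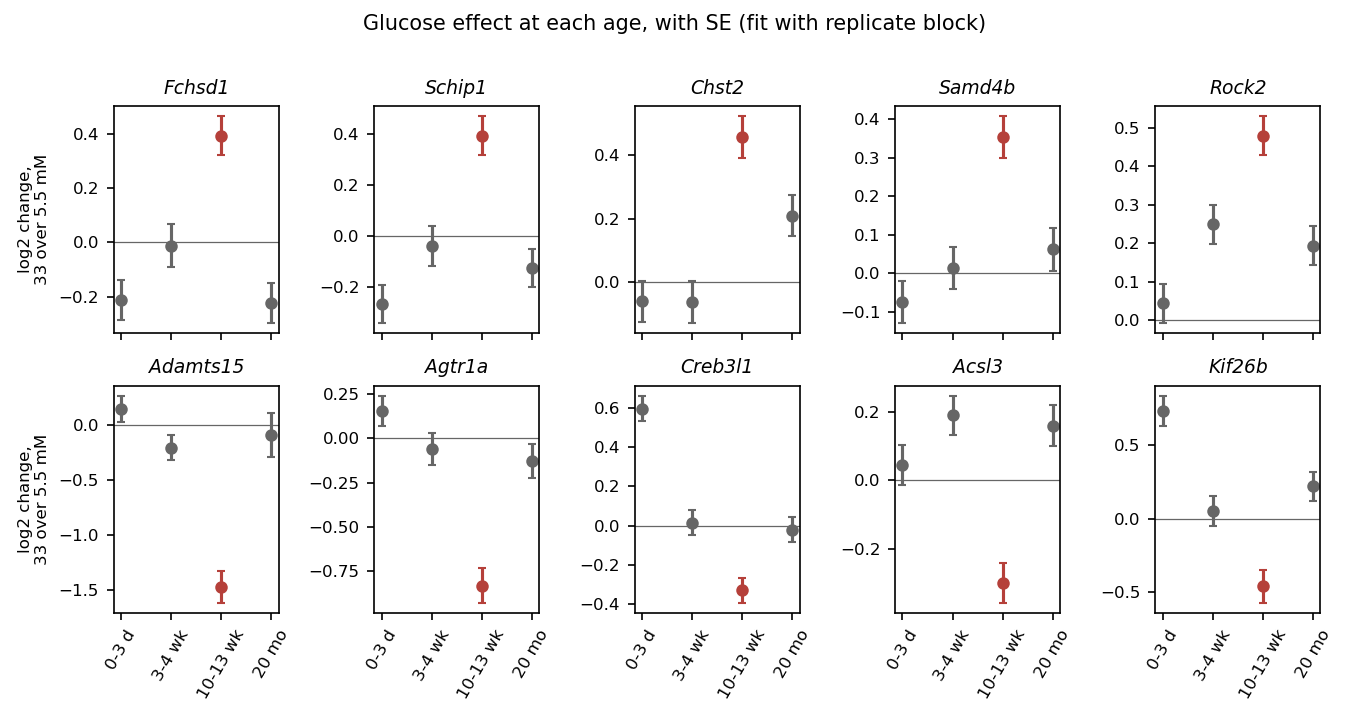
Fitted log2 change (33 over 5.5 mM glucose, vertical, with SE bars) at 0-3 days, 3-4 weeks, 10-13 weeks (red) and 20 months for the 5 genes of each direction with the smallest adjusted p for the difference. Adamts15 is at -1.48 at 10-13 weeks and near 0 at the other ages, and Creb3l1 is above 0 at 0-3 days and below it at 10-13 weeks.

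The libraries carried the markers of fibroblasts. The 16 fibroblast markers summed to 56141, 52822 and 51076 CPM in high glucose, against 59896, 56485 and 57078 CPM in normal glucose (exact permutation test, two-sided, p = 0.1, the smallest that 3 against 3 can give). Col1a1, which was not called, was the largest part of the sum. It averaged 27184 of 53346 CPM in high glucose and 29755 of 57820 CPM in normal glucose. The collagen gene Col1a2 is listed at 0 in all 6 libraries, and 1 marker, Lum, was called. Fewer cells of a type and less RNA per cell cannot be told apart in such bulk libraries. Cardiomyocyte markers summed to 82.4 to 95.5 CPM in high glucose and 89.2 to 102 CPM in normal glucose, nearly all of it Tnnt2, with Myh6, Myh7, Myl2, Myl7, Tcap and Ckm at 0.

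Endothelial markers summed to 126.6, 100.5 and 109.8 CPM in high glucose, against 109.1, 90.6 and 72.9 CPM in normal glucose (exact permutation p = 0.2). This followed the VEGF receptor Flt1 (89.4, 72.1 and 82 CPM in high glucose, against 67.5, 59.8 and 44.1 CPM in normal glucose; 0.52 ± 0.12 (SE), adjusted p = 0.0248), which lost its call without pair 1 (adjusted p = 0.0721) or pair 3 (0.122), while the other 8 tested of the list were not called. Macrophage markers summed to 96.7, 104 and 189.6 CPM in high glucose, against 105.1, 111.3 and 172.6 CPM in normal glucose, highest in library 3 of both groups, and C1qc alone was called, at a low level (0.379, 0.327 and 0.456 CPM in high glucose, against 0.104, 0 and 0.104 CPM in normal glucose; 2.38 ± 0.65 (SE), adjusted p = 0.0322) and in no fit without 1 pair. The part of these cells in the cytokine levels of pair 3 was not tested. Smooth muscle and pericyte markers summed to 381.4 to 493.4 CPM in high glucose and 355.3 to 425.9 CPM in normal glucose (exact permutation p = 0.2).

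The 8 epicardial and mesothelial markers all had a fitted log2 change below 0, but the pairs differed. In pair 2, 4 of them were above 0 and 3 below, and the medians of the pairs were -0.47, 0.012 and -0.66. Their sums were 18.7, 16.7 and 10.1 CPM in high glucose, against 25.1, 20.9 and 16.7 CPM in normal glucose (exact permutation p = 0.3). Wt1, the transcription factor of the epicardium, fell (11.9, 8.72 and 5.79 CPM in high glucose, against 16, 13.1 and 10 CPM in normal glucose; -0.58 ± 0.13 (SE), adjusted p = 0.0106), and lost its call without pair 3 (adjusted p = 0.115). Adipocyte marker sums were led by Lpl and lay between 253.2 and 448 CPM in high glucose and between 244.7 and 446.6 CPM in normal glucose, with Adipoq at 0. Schwann cell markers summed to at most 7.1 CPM in high glucose and 6.48 CPM in normal glucose. Lymphocyte markers reached 0.708 and 0.57 CPM, and erythroid markers 0.137 and 0.208 CPM, in the highest library of high and of normal glucose.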

How the data were processed

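RNA sequencing of 24 libraries was deposited as 1 table with a count and an FPKM value per gene and library. Counts were deposited raw, as whole numbers, and the deposited FPKM values served here only to derive gene length. The tools named in the submitters' processing notes are StringTie 1.3.0, HISAT2 2.0.4 and edgeR, with the genome build Rnor_6.0. Their roles, the annotation release and the use of strand are not given in the sources used here.

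Tests used edgeR 4.0.16 (R 4.3.3). Of 30957 genes, 11647 had no count, and 13806 passed filterByExpr (by group, minimum count 10, minimum total 15). Libraries were scaled by TMM, CPM use the scaled library sizes, and the robust quasi-likelihood fit took all 24 libraries. The design written first had no block. Its rule was to treat equal numbers as pairs where every same-number correlation at 10-13 weeks was over 0.1, decided before calls were compared, so the leading values come from the fit with a replicate block within each age. The difference from other ages is a contrast of that fit. Pairing at those ages was not checked, and they share in the spread behind every p value of the blocked fit. Calls are genes with an adjusted p (Benjamini-Hochberg) under 0.05. DESeq2 1.42.0 was an alternative. The scripts were tested on simulated data. No 2 of the 6 libraries of 10-13 weeks had equal counts in more than 2.79% of tested genes, so all 6 were kept as separate samples. The libraries of the other ages were not compared in this way.

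The rule for named genes took, per direction, up to 12 called genes of largest change with a mean log2 CPM of at least 1 and the same direction in 3 of 3 pairs, up to 4 members of each list with the smallest adjusted p, a few fixed genes, and up to 5 genes per direction for the difference from other ages. Members and lists were chosen with earlier results of these data known, and other list members are named after their values were seen. Some genes that the rule or the lists hold are not reported here. Lists are described by counts and medians, with no list test. Depth was 18.9 to 23.4 M counts per library, and intervals cover counting error only. Promoter sequences are from RefSeq (GRCr8), which was not matched to the coordinates of the counts.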

Additional observations from a re-analysis of the deposited data

Results flagged for a closer look

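For 10 genes the glucose effect at 10-13 weeks stood out from the mean effect at the other 3 ages by a test of the difference itself (edgeR's quasi-likelihood test with the replicate block, adjusted over 13806 genes), the 5 of each direction with the smallest adjusted p. The differences in log2 change, effect at 10-13 weeks minus mean of the others, were 0.54 for Fchsd1, 0.54 for Schip1, 0.43 for Chst2, 0.35 for Samd4b and 0.32 for Rock2. They were -1.43 for Adamts15, -0.82 for Agtr1a, -0.53 for Creb3l1, -0.43 for Acsl3 and -0.79 for Kif26b. Each gene moved in the same direction in 3 of 3 pairs at 10-13 weeks, which selection by that test favours. Without the block none of them passed, and without pair 3 of 10-13 weeks 0 genes passed as higher and 3 as lower.

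Fchsd1 changed by -0.21 ± 0.075 (0-3 days), -0.01 ± 0.079 (3-4 weeks), 0.39 ± 0.072 (10-13 weeks) and -0.22 ± 0.073 (20 months). Schip1 changed by -0.27 ± 0.074 (0-3 days), -0.04 ± 0.079 (3-4 weeks), 0.39 ± 0.076 (10-13 weeks) and -0.13 ± 0.074 (20 months). Kif26b changed by 0.73 ± 0.10 (0-3 days), 0.05 ± 0.10 (3-4 weeks), -0.46 ± 0.11 (10-13 weeks) and 0.22 ± 0.10 (20 months), and Acsl3 by 0.04 ± 0.058 (0-3 days), 0.19 ± 0.056 (3-4 weeks), -0.30 ± 0.057 (10-13 weeks) and 0.16 ± 0.060 (20 months). Kif26b was called higher at 0-3 days (adjusted p = 0.00108) and lower at 10-13 weeks. At 0-3 days Fchsd1 (adjusted p = 0.178), Schip1 (0.0824) and Acsl3 (0.793) were not called.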

How the results depend on the processing

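Without the block edgeR called 0 genes higher and 1 lower at 10-13 weeks, and 0 and 0 for the difference from the other ages, with 1174 and 327 at an unadjusted p under 0.05. The replicate block turned these into 586, 481, 17 and 19. Without the block, DESeq2 called 17 higher and 16 lower, a minimum count of 50 left 0 lower, the fit to the 6 libraries alone left 0 lower, and leaving out 1 library gave 0 to 1 lower and 0 higher. The 6 libraries alone with the block gave 489 higher and 478 lower, of which 421 and 361 were shared with the fit to all 24.

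With the block, DESeq2 called 459 higher and 304 lower, and 49 and 30 for the difference. Leaving out a pair gave 81 to 371 higher, 69 to 335 lower, 0 to 27 with a higher and 3 to 21 with a lower effect than at the other ages. The lowest counts at 10-13 weeks were without pair 3, and those without pair 1 were 218 and 172. RLE size factors, no filter, a minimum count of 50 and a fit without the robust option (the last 2 added after seeing the data) kept the counts within 1.5 times. Marker sums scaled by library totals gave an exact permutation p of 0.1 for fibroblast markers, as with TMM. For endothelial markers it was 0.3, against 0.2 with TMM. With 3 against 3 no such p can fall under 0.1, so these p values give no check at 0.05.

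Of 92 named genes called with the block, 23 were called without each pair in turn, 12 higher and 11 lower. Without pair 1, 50 were called, without pair 2, 68, and without pair 3, 26. All 92 kept their sign in these 3 fits, which selection by a test of change within pairs favours and which is no separate support. DESeq2 called 83 and RLE size factors 92. Without the block, Smpd3 alone passed in edgeR. The cause of these differences was not tested. Low genes such as Smpd3 and C1qc are limited by depth.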

Other observations

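Fst, the secreted follistatin that binds and neutralises activins, had 44.7, 34.1 and 47.7 CPM in high glucose, against 30.7, 28.8 and 19.5 CPM in normal glucose (log2 change 0.69 ± 0.18 (SE), adjusted p = 0.0478 in edgeR with the replicate block; unadjusted p without the block 0.0136). Every high glucose library lay above every normal glucose library, as for Inhba. Fst was in none of the lists and was chosen after its values were seen.

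Gene length, as implied by the deposited counts and FPKM values, had little relation to the change. Across 13806 genes, which are not independent replicates, Spearman's rank correlation of log2 change with length was -0.0186 in pair 1, 0.0905 in pair 2 and -0.0809 in pair 3. The median length was 3156 bases for genes called higher, 3011 for genes called lower and 2440 for all tested.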
